A study of Mus musculus with 3 samples.

Results

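The 37 genes described here belong to 2 named lists, 18 genes of mitosis and 19 genes of DNA replication, of the 22535 genes measured in the series. They were followed in single cells of the mouse kidney, in every cell class that could be named from marker genes, and in each of 3 libraries. All mice were WT1CreERT2; Rosa26-tdTfl/+ animals, in which tamoxifen lets Cre, driven from the WT1 locus, switch on the red fluorescent protein tdT in cells that express WT1, which in the adult kidney are podocytes and some parietal epithelial cells (PECs), the lining of Bowman's capsule. Sham was a mixture of renal cells enriched for tdT+ cells after sham surgery. IRI24h-TDN was a mixture of 2 parts tdT+ to 1 part tdT- cells, taken 24 h after severe bilateral renal ischemia-reperfusion injury (IRI). IRI24h-TD held sorted tdT+ cells alone, also 24 h after IRI. Each library came from 4 kidneys, so each condition was 1 library, and no difference between libraries has a replicate check. Animal age, and whether the sham mixture was made in the same ratio, are not given in the sources used here.

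Cells divide by copying their DNA and then separating the copies. Before replication, Cdc6 and Cdt1 load the MCM helicase, made of Mcm2 to Mcm7, onto DNA; the sliding clamp Pcna, the ligase Lig1 and the flap nuclease Fen1 act with the polymerases, and Rrm1, Rrm2 and Tyms supply the nucleotides. Afterwards the cyclin-dependent kinase Cdk1 with its cyclins Ccna2, Ccnb1 and Ccnb2 starts mitosis, Plk1, Aurka and Tpx2 build the spindle, and Cdc20 and Ube2c lead to the destruction of the cyclins. Mature podocytes are terminally differentiated and rarely divide, whereas surviving cells of the proximal tubule are known to divide after ischemic injury. The comparison therefore asks which kidney cells carry RNA of these genes after sham surgery and 24 h after IRI.

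The 2 lists differ in sequence at their promoters, which is why a few are shown before the values. Short motifs of 3 kinds were counted on both strands in the 250 bases before the start of each gene, in RefSeq sequence of build GRCm38.p6: the CCAAT box, the cell cycle homology region (CHR; TTTGAA or TTTAAA) and 4 forms of the E2F site (TTTCCCGC, TTTCGCGC, TTTGCCGC and TTTGGCGC). A promoter was found for 15 of the 18 mitosis genes and 16 of the 19 replication genes, with no entry for Aurkb, Tpx2, Ccna2, Mcm4, Gins2 and Exo1. CCAAT was present in 13 of the 15 mitosis promoters (86.7%) and 10 of the 16 replication promoters (62.5%), against 34.5% of 27025 promoters of all genes. A CHR was present in 11 of 15 mitosis promoters (73.3%) and 3 of 16 replication promoters (18.8%), against 25.5% of all. An E2F form was present in 1 of 15 mitosis promoters (6.67%), that of Cdk1, and in 5 of 16 replication promoters (31.3%), those of Mcm5, Mcm6, Mcm7, Cdc6 and Brca2, against 1.91% of all. Both CCAAT and a CHR stood in 10 of 15 mitosis, 2 of 16 replication and 9.0% of all promoters. These are counts of letters in a window and not of bound sites.

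The 160 bases before the start are printed 5′ to 3′ on the strand of the gene for 5 members chosen, after the matches had been seen, because they hold several motifs; capitals mark every match. Cdk1 (chr10:69352913-69353072, minus strand) has all 3 kinds, Plk1 (chr7:122159275-122159434, plus strand) has CHRs beside a CCAAT box, and Ccnb2 (chr9:70421555-70421714, minus strand) has 3 CCAAT boxes spaced 33 bases apart. Mcm5 (chr8:75109349-75109508, plus strand) and Mcm6 (chr1:128359706-128359865, minus strand) have E2F forms that match on both strands and overlap, 4 bases apart, so that their letters run together.
Cdk1: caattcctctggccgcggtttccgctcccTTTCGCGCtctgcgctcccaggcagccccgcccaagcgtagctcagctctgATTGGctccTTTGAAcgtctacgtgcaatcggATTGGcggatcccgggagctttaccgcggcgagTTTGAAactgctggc
Plk1: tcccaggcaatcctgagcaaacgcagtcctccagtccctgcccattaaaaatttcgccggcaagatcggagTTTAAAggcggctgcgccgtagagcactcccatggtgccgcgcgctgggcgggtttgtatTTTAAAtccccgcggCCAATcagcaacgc
Ccnb2: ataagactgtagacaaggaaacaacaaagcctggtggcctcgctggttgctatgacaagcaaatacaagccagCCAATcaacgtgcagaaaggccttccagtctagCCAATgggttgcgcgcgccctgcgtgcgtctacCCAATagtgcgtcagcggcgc
Mcm5: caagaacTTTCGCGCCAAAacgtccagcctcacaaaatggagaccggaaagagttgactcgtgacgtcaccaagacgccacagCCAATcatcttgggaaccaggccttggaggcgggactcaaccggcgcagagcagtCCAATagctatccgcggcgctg
Mcm6: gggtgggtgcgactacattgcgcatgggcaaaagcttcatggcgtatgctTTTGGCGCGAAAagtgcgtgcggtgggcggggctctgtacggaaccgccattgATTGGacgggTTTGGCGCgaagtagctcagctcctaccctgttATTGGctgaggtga

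Cells were kept where they had at least 200 genes and at most 50% mitochondrial UMIs (unique molecular identifiers, each of which stands for 1 captured RNA molecule), which left 26760 cells (Sham 8047, IRI24h-TDN 9024, IRI24h-TD 9689). The files summed to 69980443, 92355554 and 93470709 UMIs, and the median kept cell had 7746, 9151 and 9529 UMIs. The 3 pairs of libraries shared 102 to 114 barcodes. Clusters built without cell cycle genes were named from markers with the ending -like, which gave 13 classes, with 603 cells unnamed. The podocyte-like class held most of them (18330), and the others of interest here were 1424 PEC-like, 1399 PTEC-like (proximal tubular epithelial cell), 1314 monocytic-like, 599 connecting tubule-like and 102 lymphocyte-like cells. The largest PEC-like cluster, cluster 7 with 716 cells in the 3 libraries, had Spink1, Gc, the PEC markers Cldn2, Cp, Cdh6 and Vcam1 and the injury-associated Sox9 among its 10 leading genes, and PEC-like cells also held RNA of the PTEC markers, whose summed levels are given with those of the other marker lists. All intervals given below are 95% intervals that cover counting error only; they cover neither the animals nor the small number of cells that carry the UMIs.

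Mitosis genes were held by few cells. No mitosis gene was detected in 23618 cells, 1 in 2652 cells and 2 in 248 cells, while 242 cells had at least 3, of which 119 had at least 9 and 19 had all 18. These 242 cells held 1.48% of all UMIs and 78.0% of the mitosis UMIs. Replication genes were spread over far more cells, with 1 gene detected in 8846 cells and 2 in 6016, and the same 242 cells held 16.9% of the replication UMIs.

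**Figure D1:**
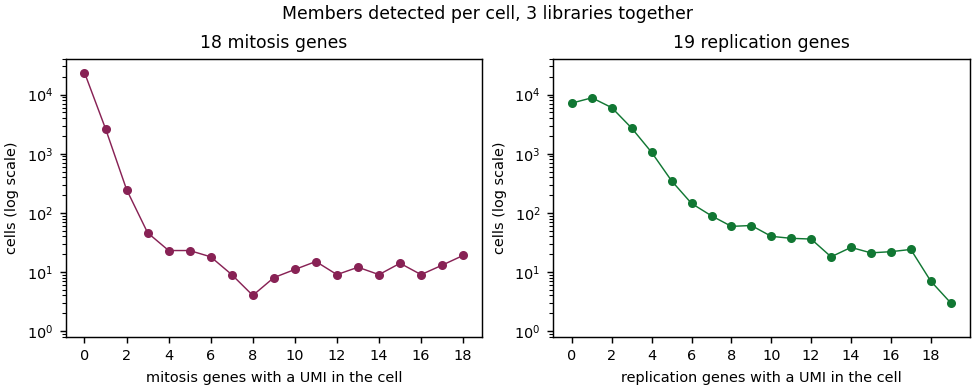
Number of cells (log scale) by the number of the 18 mitosis genes (left) and of the 19 replication genes (right) with a UMI in the cell, 3 libraries together. The mitosis counts fall from 23618 cells with none to 4 cells with 8 genes and are higher again at 18 genes, with 19 cells, whereas the replication counts decline from a peak of 8846 cells at 1 gene.

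Gene by gene the contrast was as clear. For the median mitosis gene, 79.1% of its UMIs lay in cells with at least 3 other mitosis genes, from 32.5% for Aurka to 93.0% for Bub1, a kinase of the spindle checkpoint. Mki67, which encodes the proliferation antigen Ki67, was detected in 81.2% of cells with at least 3 other mitosis genes and in 0.614% of cells with none. Top2a, the topoisomerase that untangles chromosomes, was detected in 81.8% and 0.648%. Aurka and Ccnb2 were less restricted, with 56.5% and 42.4% of their UMIs in cells without any other mitosis gene. For the median replication gene only 21.9% of UMIs lay in cells with at least 3 mitosis genes, from 7.93% for Brca2, a recombination repair gene, to 66.6% for Rrm2, the regulated subunit of ribonucleotide reductase. Pcna was detected in 38.4% of cells with no mitosis gene and Rrm1 in 19.8%, so a UMI of either gene alone does not mark a dividing cell in these files.

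The 2 lists nonetheless met in the same cells. At least 5 replication genes were detected in 78.9% of the cells with at least 3 mitosis genes, in 8.45% of those with 1 or 2, and in 2.11% of those with none. Detection goes with depth: the 242 cells had a median of 12566.5 UMIs and the other kept cells 8859. Doublet scores in the top 6% of their library were given to 10 of the 242 cells (4.13%) and to 5.40% of the others. There were 51 cells with at least 3 mitosis but fewer than 5 replication genes, and these were shallower, with a median of 5365 UMIs.

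In all kept cells, the share with at least 3 mitosis genes was 0.721% in Sham (58 of 8047, interval 0.548 to 0.931), against 1.41% in IRI24h-TDN (127 of 9024, 1.17 to 1.67) and 0.588% in IRI24h-TD (57 of 9689, 0.446 to 0.762). With each cell thinned to 2400 UMIs and shallower cells left out, these shares were 0.562%, 0.770% and 0.357%. The mixtures were thus closer at equal depth. The podocyte-like cells made up 54.3%, 57.2% and 90.8% of the libraries so these overall shares move with the makeup of each library. By class, mitosis genes were found chiefly in lymphocyte-like, PEC-like, monocytic-like, PTEC-like and connecting tubule-like cells. Podocyte-like cells had 4 such cells of 18330 (0.0218%), at a median depth of 9111 UMIs against 8164.5 in PEC-like cells. The part of free RNA in the shares of any class was not tested.

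PEC-like cells with mitosis genes were more frequent after IRI. At least 3 mitosis genes were detected in 11 of 805 Sham cells (1.37%, 0.684 to 2.43), 31 of 274 IRI24h-TDN cells (11.3%, 7.82 to 15.7) and 34 of 345 IRI24h-TD cells (9.86%, 6.92 to 13.5). The Sham interval lies below both IRI intervals, which overlap each other. This difference depends on keeping cell cycle genes out of the clustering: with them kept in, 64 of these 76 cells fell in an unnamed cluster, and 2 of 768, 1 of 222 and 7 of 292 PEC-like cells had 3 mitosis genes. With each cell thinned to 2400 UMIs and shallower cells left out (725, 265 and 309 cells remained) the shares were 1.24%, 7.92% and 6.47%. PTEC-like cells had 14 of 1109 in Sham (1.26%, 0.692 to 2.11), 8 of 162 in IRI24h-TDN (4.94%, 2.16 to 9.50) and 20 of 128 in IRI24h-TD (15.6%, 9.81 to 23.1). After thinning these became 10 of 968 (1.03%), 2 of 160 (1.25%) and 11 of 85 (12.9%). In that thinned draw the mixtures were close and the tdT+ library stood above both, but the IRI24h-TDN share rests on 2 cells.

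Monocytic-like cells had similar shares in both mixtures, 16 of 332 (4.82%, 2.78 to 7.71) in Sham and 60 of 966 (6.21%, 4.77 to 7.92) in IRI24h-TDN. Lymphocyte-like cells had the highest shares, 13 of 73 (17.8%, 9.84 to 28.5) in Sham and 5 of 22 (22.7%, 7.82 to 45.4) in IRI24h-TDN, with wide intervals. The 14 lymphocyte markers summed to 47938 CPM in the 13 Sham cells and 223038 in the others. In IRI24h-TDN they summed to 7150 CPM in the 5 cells and 240092 in the others, so the identity of these cells is uncertain. Without the top 6% of doublet scores no cluster was named lymphocyte-like. Connecting tubule-like cells had 0 of 233 in Sham, which allows a share of up to 1.29% by a limit of 3 counts (exact interval 0 to 1.57), and 12 of 337 (3.56%, 1.85 to 6.14) in IRI24h-TDN. No mesangial-like cell of 771 and no distal convoluted tubule-like cell of 520 had 3 mitosis genes.

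**Figure D2:**
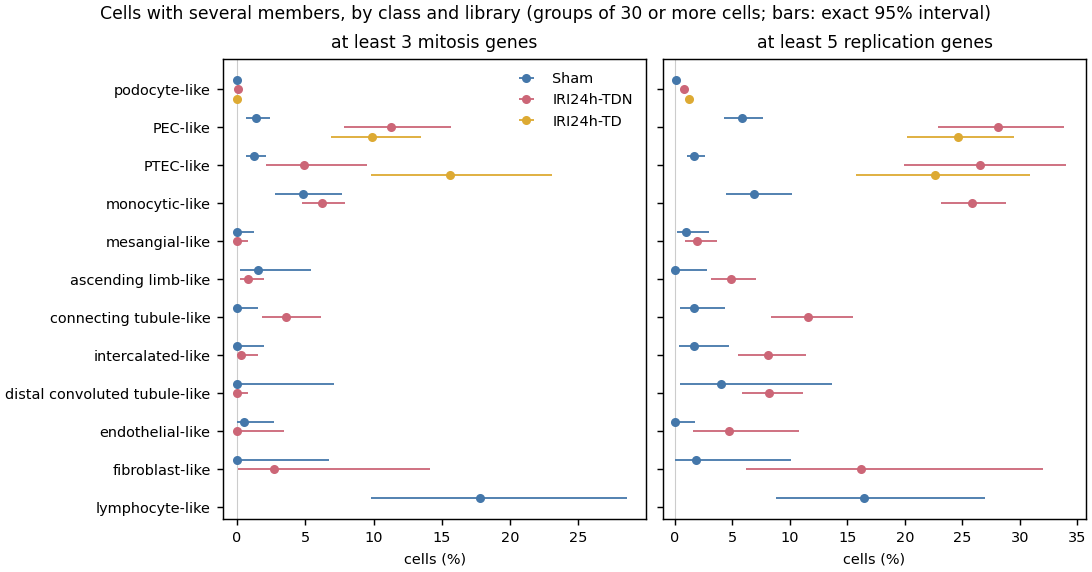
Percentage of cells with at least 3 mitosis genes (left) and at least 5 replication genes (right) by class and library, for groups of at least 30 cells; points are shares and bars exact 95% intervals. PEC-like cells move from 1.37% in Sham to 11.3% in IRI24h-TDN on the left and from 5.84% to 28.1% on the right, and podocyte-like cells lie at or near 0.

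Cells with at least 5 replication genes were several times more frequent after IRI in more classes than the mitosis genes showed. In PEC-like cells their share was 5.84% in Sham (4.32 to 7.69), against 28.1% in IRI24h-TDN (22.9 to 33.8) and 24.6% in IRI24h-TD (20.2 to 29.5). PTEC-like cells went from 1.71% (1.03 to 2.66) to 26.5% (19.9 to 34.0) between the mixtures, and monocytic-like cells from 6.93% (4.44 to 10.2) to 25.9% (23.1 to 28.8). Connecting tubule-like cells had 1.72% and 11.6%. Podocyte-like cells had 0.137%, 0.794% and 1.25% in the 3 libraries, and none after thinning to 2400 UMIs. Thinned shares were 0.966% and 11.3% in PEC-like, 0.517% and 5.0% in PTEC-like and 2.36% and 7.48% in monocytic-like cells of the mixtures, so IRI24h-TDN was higher at equal depth in all 3 of these classes.

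Summed levels were expressed as CPM, counts per 1e6 UMIs of the class. In PEC-like cells of Sham the mitosis genes summed to 264 CPM (252 to 276), against 819 (789 to 850) after IRI in the mixture and 880 (850 to 910) in the tdT+ library. The replication genes summed to 343 CPM (329 to 357), 1088 (1054 to 1124) and 1070 (1037 to 1103). IRI24h-TDN was thus 3.10-fold above Sham for mitosis (2.92 to 3.29) and 3.17-fold for replication (3.01 to 3.34). With cell cycle genes kept in the clustering, the log2 ratio of the class was -0.30 for mitosis and 0.70 for replication. The most loaded cell held 20.5% of the Sham mitosis UMIs and 14.3% of those in IRI24h-TDN.

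**Figure D3:**
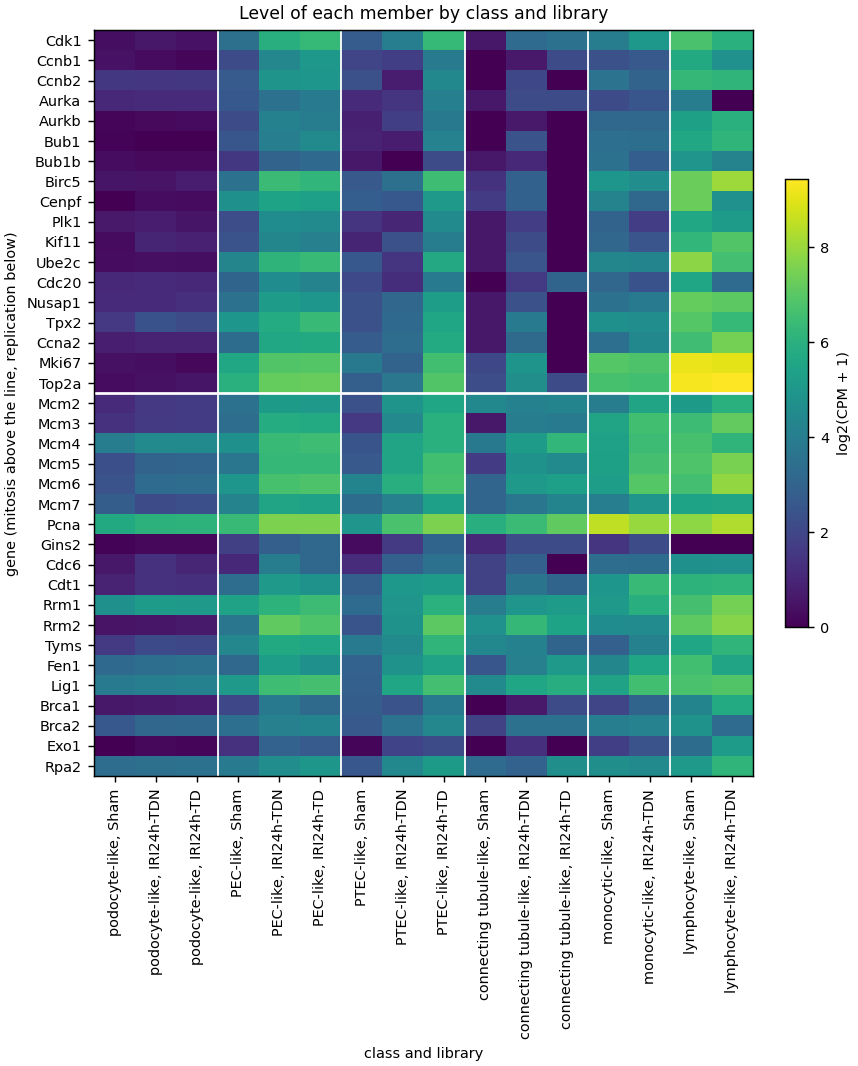
Level of each of the 37 members as log2(CPM + 1), by class and library, for groups of at least 20 cells in 6 classes; brighter is higher, mitosis genes stand above the white line and replication genes below it. Podocyte-like columns are dark for mitosis genes and hold Pcna, Rrm1, Mcm4 and Lig1, and PEC-like columns are brighter in IRI24h-TDN and IRI24h-TD than in Sham.

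Among the kinases and cyclins in PEC-like cells, Cdk1 (chr10:69335146-69352938, build mm10) was at 10.3 CPM in Sham, against 59.5 in IRI24h-TDN and 78.9 in IRI24h-TD. Ccnb1 was at 3.56, 19.5 and 31.6 CPM, and Ccna2 at 9.12, 47.9 and 52.1 CPM. All 3 were lowest in Sham, and the mixture after IRI was 5.79-fold (4.41 to 7.69) higher for Cdk1, 5.48-fold (3.41 to 9.06) for Ccnb1 and 5.25-fold (3.91 to 7.13) for Ccna2. Plk1, the polo-like kinase, was 6.15-fold higher (3.90 to 9.99). Aurkb and Birc5, which encode Aurora B and survivin of the chromosomal passenger complex, were 4.93-fold (3.01 to 8.31) and 7.89-fold (6.10 to 10.3) higher.

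Genes of the spindle and chromosomes ranged more widely. Kif11, the motor that separates spindle poles, was 4.43-fold higher (2.83 to 7.08) and Nusap1, which binds spindle microtubules, 3.41-fold (2.53 to 4.63). Aurka, a spindle kinase, was 2.08-fold higher and the checkpoint kinase Bub1 3.27-fold. Mki67 was at 48.9 CPM in Sham, against 115 and 119 in IRI24h-TDN and IRI24h-TD, and Top2a at 61.9, 147 and 150 CPM, which gave 2.35-fold (2.03 to 2.72) and 2.38-fold (2.09 to 2.72). Cenpf, a kinetochore protein, at 1.71-fold (1.37 to 2.14), and Tpx2, at 1.85-fold (1.51 to 2.26), were the 2 mitosis genes under 2-fold. In all, 16 of the 18 mitosis genes were at least 2-fold higher in IRI24h-TDN and none was 2-fold lower, where 8.92% of the 13444 genes with at least 10 UMIs were called higher and 13.0% lower. The median log2 fold was 1.92 over the mitosis genes and -0.04 over all genes. The 18 genes are not separate results, since 31 of the 274 IRI24h-TDN cells held 97.0% of their UMIs in that group.

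Of the replication genes in PEC-like cells, 16 of 19 were at least 2-fold higher and none was 2-fold lower, against the same background, with a median log2 fold of 1.73. Among the loading factors, Cdc6 was at 1.14 CPM in Sham, against 14.8 in IRI24h-TDN and 7.89 in IRI24h-TD, a fold of 13.0 (6.10 to 31.7) between the mixtures that rests on 8 Sham UMIs. The helicase subunits all exceeded 2-fold, from 2.59-fold for Mcm7 (2.02 to 3.31) to 6.37-fold for Mcm5 (4.97 to 8.24). Mcm5 (chr8:75109569-75128439) was at 12.1, 77.2 and 76.8 CPM and Mcm6 (chr1:128331590-128359664) at 29.8, 102 and 110 CPM in Sham, IRI24h-TDN and IRI24h-TD.

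Rrm2 (chr12:24708241-24714146) was at 12 CPM in Sham and at 138 and 112 CPM in the IRI mixture and the tdT+ library, a fold of 11.5 (9.09 to 14.7) between the mixtures, while Rrm1, the constant subunit of the same enzyme, was 1.64-fold higher (1.37 to 1.95). Fen1 was 4.79-fold higher (3.47 to 6.70) and Lig1 2.70-fold (2.27 to 3.22). Pcna was at 83.4, 191 and 187 CPM. Of the repair genes, Brca1 was 4.15-fold higher (2.44 to 7.27), while Brca2 at 1.65-fold (1.14 to 2.39) and Rpa2, which binds single-stranded DNA, at 1.74-fold (1.28 to 2.38) were under 2-fold.

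In PTEC-like cells the lists parted. The replication genes summed to 135 CPM in Sham (128 to 143), against 551 in IRI24h-TDN (525 to 578) and 1122 in IRI24h-TD (1067 to 1179), so that the mixture after IRI was 4.07-fold (3.78 to 4.38) above Sham. The mitosis genes summed to 71.0 CPM (65.7 to 76.6), 91.6 (81.0 to 103) and 733 (688 to 779), which is 1.29-fold (1.12 to 1.49) between the mixtures. That mitosis value rested on 1 cell, which held 52.9% of the IRI24h-TDN mitosis UMIs, and the log2 ratio of 0.37 became -0.35 when each library was taken without its top cell. PTEC-like cells were also deeper in IRI24h-TDN, with a median of 14839.5 UMIs against 6993 in Sham.

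Helicase genes were among the replication genes that differed in PTEC-like cells, from 1.78-fold for Mcm7 (1.22 to 2.57) and 3.36-fold for Mcm6 (2.71 to 4.17) to more than that for Mcm2 to Mcm5. Mcm3 was at 1.94 CPM in Sham, against 20.9 in IRI24h-TDN and 62.3 in IRI24h-TD, and Mcm4 at 4.42, 44.4 and 63.0 CPM, which is 10.7-fold (6.28 to 19.3) and 10.04-fold (7.03 to 14.6) between the mixtures. Lig1 was 7.24-fold higher (5.30 to 10.005), Rrm2 6.16-fold (4.18 to 9.21) and Cdt1 5.0-fold (3.57 to 7.07). Brca1 was at 5.83 and 4.38 CPM, with a fold of 0.751 (0.376 to 1.39). Of 17 replication genes with at least 10 UMIs, 14 were at least 2-fold higher and none lower, against 16.3% of 12632 genes higher and 15.7% lower.

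Of 17 mitosis genes in PTEC-like cells, 5 were at least 2-fold higher (Cdk1, Aurkb, Kif11, Tpx2 and Top2a) and 3 were 2-fold lower (Ccnb2, Ube2c and Cdc20). With 16.3% of all genes higher and 15.7% lower in this class, the count of lower genes is near the background. Cdk1 was at 5.72 CPM in Sham and 15.5 in IRI24h-TDN, detected in 14 of 1109 and 17 of 162 cells. Ccnb2, a cyclin of entry into mitosis, was at 3.99 and 0.673 CPM (fold 0.169, 0.0197 to 0.654), from 2 UMIs in IRI24h-TDN. Ube2c, the ubiquitin-conjugating enzyme of the anaphase-promoting complex, was at 5.07 and 1.68 CPM. Mki67 was at 12.9, 7.07 and 95.3 CPM in the 3 libraries, with the tdT+ library highest.

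**Figure D4:**
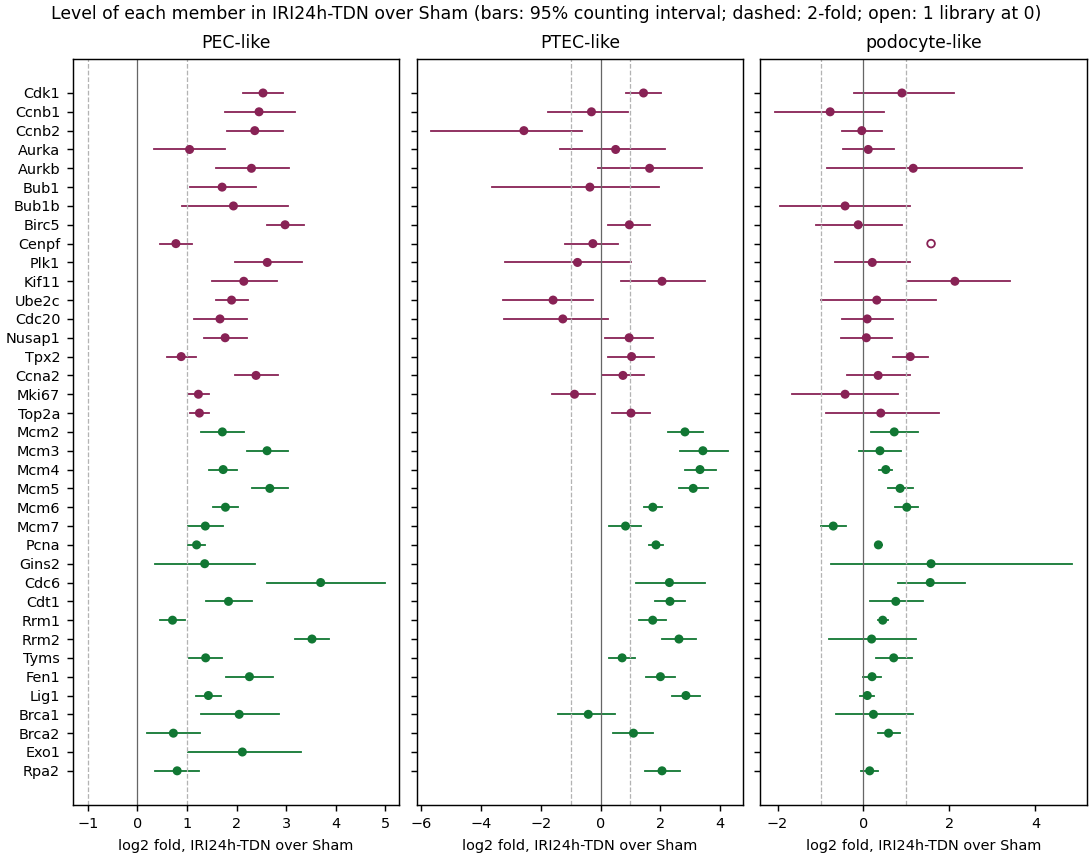
Log2 fold of each member in IRI24h-TDN over Sham in PEC-like, PTEC-like and podocyte-like cells; points are folds, bars 95% counting intervals, purple mitosis and green replication, dashed lines 2-fold, and the open point marks a gene with no UMI in Sham (Cenpf in podocyte-like cells, a lower bound). In PEC-like cells 16 of 18 mitosis and 16 of 19 replication genes lie beyond 2-fold, while in PTEC-like cells the green points lie to the right and the purple points on both sides of 0.

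Podocyte-like cells differed little between libraries. Their mitosis genes summed to 11.2, 14.9 and 13.9 CPM in Sham, IRI24h-TDN and IRI24h-TD, against 819 in PEC-like cells of IRI24h-TDN. The replication genes summed to 150 CPM (146 to 154), 196 (192 to 199) and 200 (197 to 203), and the ratio between the mixtures was 1.30 (1.26 to 1.34). In this class 4 of 17 mitosis genes (Aurkb, Cenpf, Kif11 and Tpx2) and 3 of 18 replication genes (Mcm6, Gins2 and Cdc6) were at least 2-fold higher and none was 2-fold lower, against 6.13% of 14467 genes higher and 12.0% lower. Aurkb (3 and 9 UMIs in Sham and IRI24h-TDN), Cenpf (0 and 12) and Gins2 (2 and 8) met the UMI limit largely through IRI24h-TDN. The intervals of Aurkb (0.557 to 12.8) and Gins2 (0.593 to 28.7) cover both directions, so their direction is not settled. The Cenpf fold is a lower bound. Tpx2 was at 1.97 and 4.19 CPM, and Cdc6 at 0.520 and 1.52 CPM. Mcm7 had a fold of 0.614 (0.50 to 0.754), the other way from Mcm6 at 2.01 (1.67 to 2.43).

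In monocytic-like cells the mixtures differed in replication genes more than in mitosis genes. The mitosis genes summed to 422 CPM in Sham (392 to 454) and 392 in IRI24h-TDN (377 to 408), and the replication genes to 772 (731 to 815) and 1110 (1085 to 1136). Of 19 replication genes 11 were at least 2-fold higher, against 12.1% of 12015 genes, led by Mcm6 at 3.24-fold (2.51 to 4.25) and Mcm2 at 3.02-fold (2.0 to 4.74). Of 18 mitosis genes 2 were 2-fold higher (Cdk1 and Ccna2) and 2 lower (Cenpf and Plk1), counts near the 12.1% of all genes called higher and 10.4% called lower. Pcna went the other way from the helicase, at 369 CPM in Sham (341 to 399) and 251 in IRI24h-TDN (239 to 264). The makeup of this class differed between the mixtures, with cluster 23 at 19 of 332 Sham cells and 199 of 966 IRI24h-TDN cells. Its part in these values was not tested.

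Connecting tubule-like cells had 15.2 CPM of mitosis genes in Sham and 126 in IRI24h-TDN, a ratio of 8.28 (5.68 to 12.5), with 28.8% of the latter in 1 cell. All 13 mitosis genes with at least 10 UMIs and 11 of 17 replication genes were at least 2-fold higher and none was 2-fold lower, against 11.2% of 11570 genes higher and 9.28% lower. The mitosis list had 29 UMIs in Sham and 438 in IRI24h-TDN. Most mitosis genes therefore met the limit of 10 UMIs through IRI24h-TDN, so their count adds little to the summed ratio. Most of these mitosis genes had 0 or 1 UMI in Sham, so their folds are poorly bounded: Mki67, with 6 Sham UMIs, was at 3.15 and 28.2 CPM (8.95-fold, 3.97 to 25). Mcm5 was at 2.10 and 27.3 CPM (13.0-fold, 4.92 to 48.8).

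Rrm2 was often detected in connecting tubule-like and distal convoluted tubule-like cells, mostly without 3 mitosis genes. It was detected in 23 of 233 Sham connecting tubule-like cells (9.87%, 6.36 to 14.4) and 106 of 337 in IRI24h-TDN (31.5%, 26.5 to 36.7), at 26.2 and 77.3 CPM, whereas podocyte-like cells had 0.252% and 0.387%. Thinned to 2400 UMIs, the connecting tubule-like shares were 4.09% and 12% and the podocyte-like shares 0.0469% and 0.0582%. Of the 135 connecting tubule-like cells with Rrm2 in the 3 libraries, 98 had no mitosis gene (72.6%) and 74 of those had fewer than 3 other replication genes. Distal convoluted tubule-like cells had Rrm2 in 22.0% of Sham cells (11 of 50) and 21.3% of IRI24h-TDN cells (96 of 451), at 20.7 and 22.5 CPM, although none had 3 mitosis genes. In PEC-like cells of IRI24h-TDN, by contrast, 14.3% of the 42 cells with Rrm2 lacked a mitosis gene, and their median was 9 mitosis genes. The level of Rrm2 was not particular to the distal nephron. It was at 22.8 and 22.2 CPM in monocytic-like and 4.42 and 27.3 in PTEC-like cells of Sham and IRI24h-TDN. Ascending limb-like cells had 7.58 and 14.5 CPM and intercalated-like cells 4.31 and 6.63.

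The clusters within the classes did not behave alike. In PEC-like cluster 7 the mitosis genes were at 84.5 CPM in Sham (75.3 to 94.4) and 1100 in IRI24h-TDN (1059 to 1142), 13.0-fold higher (11.6 to 14.7). In cluster 16, led by Cpe, Adamts5 and Tnc, they were at 697 CPM in Sham and 56.4 in IRI24h-TDN, a ratio of 0.0809 (0.0505 to 0.123), and in cluster 20, led by Tnc and Cp, at 238 and 57.8 CPM, with 92.0% of the Sham UMIs of cluster 20 in 1 cell. Of the 11 Sham PEC-like cells with 3 mitosis genes, 7 lay in cluster 16, and of the 31 in IRI24h-TDN, 30 lay in cluster 7. The higher mitosis level of PEC-like cells after IRI was thus a difference of cluster 7, and without that cluster the log2 ratio of the class was -3.01. Replication genes were higher in cluster 7 (4.66-fold, 4.33 to 5.01) and cluster 20 (2.16-fold, 1.89 to 2.48), while in cluster 16 the ratio was 1.10 (0.944 to 1.27).

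**Figure D5:**
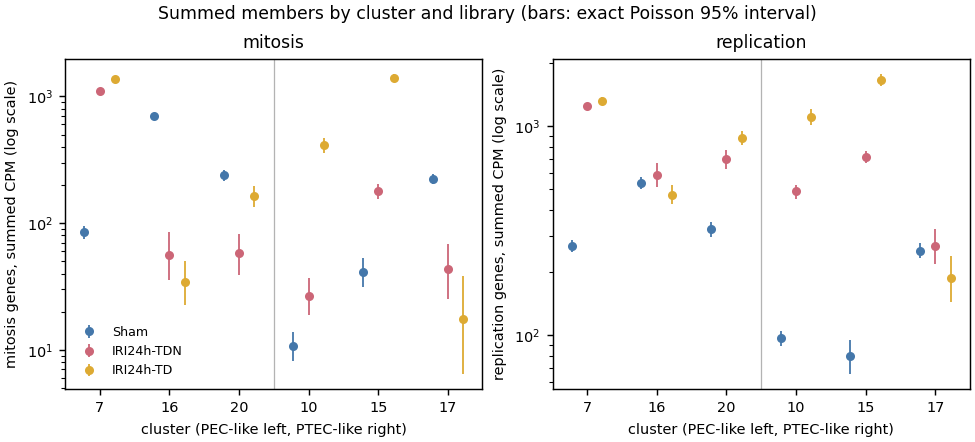
Summed CPM (log scale) of mitosis (left) and replication (right) genes in the 3 PEC-like clusters (7, 16, 20) and the 3 PTEC-like clusters (10, 15, 17), by library; bars are exact Poisson 95% intervals. For mitosis, IRI24h-TDN lies above Sham in clusters 7, 10 and 15 and below it in 16, 20 and 17. In cluster 15, 1 cell held most of the IRI24h-TDN mitosis UMIs.

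PTEC-like clusters also differed from each other. Mitosis genes were 2.48-fold higher in IRI24h-TDN in cluster 10 (1.59 to 3.82) and 4.39-fold in cluster 15 (3.28 to 5.95), and had a ratio of 0.194 in cluster 17 (0.112 to 0.313), where 27 cells came from IRI24h-TDN and 351 from Sham. The 1 cell that held 52.9% of the IRI24h-TDN mitosis UMIs of the class lay in cluster 15. The ratio of that cluster therefore rests largely on 1 cell, which its interval does not cover. Replication genes were 5.04-fold (4.49 to 5.67), 8.97-fold (7.37 to 11.0) and 1.05-fold (0.850 to 1.30) in clusters 10, 15 and 17.

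The tdT+ library was compared with the mixture after IRI. In PEC-like cells the ratio of IRI24h-TD to IRI24h-TDN was 1.07 for mitosis (1.02 to 1.13) and 0.983 for replication (0.94 to 1.03), and no member of either list differed by 2-fold, against 3.63% of 12599 genes higher and 5.05% lower. In PTEC-like cells the ratio was 8.0 for mitosis (6.99 to 9.18) and 2.04 for replication (1.90 to 2.18), and all 17 mitosis genes with at least 10 UMIs were at least 2-fold higher, against 11.3% of 11128 genes higher and 4.77% lower, with Cdk1 at 15.5 and 79.5 CPM. These genes are not separate results, since the mitosis UMIs lay in 44 cells of IRI24h-TD and 47 of IRI24h-TDN. Some met the limit largely through IRI24h-TD, such as Ccnb2 (28 and 2 UMIs in IRI24h-TD and IRI24h-TDN) and Bub1 (24 and 2). In IRI24h-TD 1 cell held 28.6% of the mitosis UMIs and in IRI24h-TDN 1 cell held 52.9%, and without the top cell of each library the mitosis ratio was 12.3 (10.2 to 15). The 20 of 128 IRI24h-TD cells with 3 mitosis genes became 5 of 124 with cell cycle genes kept in the clustering, against 5 of 163 in IRI24h-TDN. They became 4 of 43 with no correction between libraries and 11 of 78 without the top 6% of doublet scores. Cluster 15 held 17 of the 20 PTEC-like cells with 3 mitosis genes in IRI24h-TD. These 20 cells had Wt1 in 65.0%, against 50% of the other 108 PTEC-like cells of that library, at median depths of 15480.5 and 7716 UMIs. The 12 podocyte markers summed to 5727 CPM in these 20 cells and 5337 in the other 108, and the 20 PTEC markers to 5016 and 10056 CPM, so these 20 cells held at least as much podocyte as PTEC marker RNA, and its part in the result was not tested.

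Replication genes were also detected in cells with few or no mitosis genes. At least 9 replication genes, a count set after the data had been seen, were detected in 295 cells, of which 133 had fewer than 3 mitosis genes: 54 monocytic-like, 46 PEC-like, 20 PTEC-like and 5 connecting tubule-like, and no podocyte-like cell had 9. These 133 cells came mostly from IRI24h-TDN (93), with 31 from IRI24h-TD and 9 from Sham. In cells with fewer than 3 mitosis genes the replication genes summed to 307 CPM in Sham (294 to 320) and 464 in IRI24h-TDN (439 to 491) in PEC-like cells, and to 122 (115 to 129) and 385 (362 to 409) in PTEC-like cells. In cells with no mitosis gene at all they summed to 296 CPM (281 to 310) and 405 (378 to 434) in PEC-like cells, and to 114 (107 to 122) and 277 (253 to 303) in PTEC-like cells, so the gaps were smaller. The cells with at least 3 mitosis genes held 65.4% of the replication UMIs of PEC-like cells in IRI24h-TDN and 12.8% in Sham, and 35.4% and 11.8% in PTEC-like cells.

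Havcr1 and Krt20 were detected more often in PEC-like cells with at least 3 mitosis genes than in the other PEC-like cells of the IRI libraries, whereas the whole list of injured tubule markers differed less. Its 12 genes summed to 2769 CPM in such cells and 2444 in the others in IRI24h-TDN, 2511 and 1621 in IRI24h-TD, and 1286 and 1431 in Sham. In monocytic-like cells of IRI24h-TDN the sums were 1988 and 2034 CPM. Havcr1, which encodes the tubular injury molecule Kim1, was detected in 15 of 31 such PEC-like cells in IRI24h-TDN (48.4%) against 12.8% of the other 243, and in 19 of 34 in IRI24h-TD (55.9%) against 7.72%. In Sham it was detected in none of the 11, nor in the other 794 PEC-like cells. Krt20, an injury-associated keratin, was detected in 77.4% against 27.6% in IRI24h-TDN and 82.4% against 24.1% in IRI24h-TD. Wt1, the zinc finger factor, was detected in 67.7% against 70.4% and in 76.5% against 78.5%. These cells were deeper, with a median of 19632.5 UMIs against 7943.5 over the 3 libraries, and the part of depth in the shares was not tested. On the CPM scale Havcr1 was at 464 and 127 in IRI24h-TDN, and Wt1 at 127 and 263.

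Markers of other cell types were summed in the same cells. In PEC-like cells with at least 3 mitosis genes, 14 monocytic markers summed to 187 CPM against 410 in the other PEC-like cells of IRI24h-TDN, and to 152 against 220 in IRI24h-TD. The 12 podocyte markers summed to 760 against 2641 and 1479 against 6262 CPM in these libraries. The 20 PTEC markers summed to 991 against 1850 and 1028 against 1475 CPM, and the 15 PEC markers to 5831 against 9916 and 8409 against 12284. None of the 76 PEC-like cells with 3 mitosis genes had a doublet score in the top 6%, against 4.82% of the others.

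Longer lists from the same processes were counted beside the members. In PEC-like cells, 66 of 89 other mitosis genes and 44 of 71 other replication genes were at least 2-fold higher in IRI24h-TDN and none was 2-fold lower. Of all genes in this class, 8.92% were called higher and 13.0% lower. The longer lists are not a result separate from the members, since they draw in part on the same cells. The 242 cells with at least 3 mitosis genes held 42.6% of the UMIs of the median other mitosis gene. For the median other replication gene they held 15.3%. In PTEC-like cells 22 of 72 other mitosis genes were higher and 11 lower, and 43 of 64 other replication genes were higher and none lower. Of all genes in that class, 16.3% were called higher and 15.7% lower, so the count of lower mitosis genes is near that share. The other mitosis genes with the most UMIs in the 242 cells were Tubb5, Tuba1b, Smc4, H2afz and Stmn1, and the other replication genes Tmpo, Pclaf, Nasp, Usp1 and Tk1. Stmn1, a microtubule regulator, was at 304 CPM there and 11.1 in the rest, and Pclaf, a partner of Pcna, at 380 and 0.824 CPM. Tuba1b was at 974 and 290 CPM, with 4.82% of its UMIs in those cells.

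Over 27 groups of class and library, the summed mitosis and replication levels had a Spearman rho of 0.77 and a Pearson r of 0.88 on the log2 scale, a description over groups that share libraries. Outside the cell cycle lists, the genes whose levels followed the mitosis sum most closely were H13 (rho 0.87), Rps20 (0.84), Slc16a1 (0.84), Rpl32 (0.83) and Rack1 (0.82).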

How the data were processed

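Single cells were captured on the BD Rhapsody platform, in which a UMI marks each captured RNA molecule. The deposited tables hold whole-number UMI counts per gene and barcode, not normalized; per the labels the submitters' processing notes name build mm10, CASAVA 1.8, UMI-tools and Seurat, and the authors state that multiplets were excluded after cell selection. The libraries held 10062, 10062 and 9884 barcodes, of which 2015, 1038 and 195 were left out under the filters given in the report. A gene not listed in a library was counted as 0 there. Libraries shared 82 to 96 kept barcodes, which were treated as separate cells.

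Counts were scaled to 10000 per cell, 2000 variable genes without the 203 cell cycle genes, mitochondrial, ribosomal and haemoglobin genes gave 30 principal components, these were adjusted between libraries by Harmony (theta 2) and clustered by the Leiden method at resolution 1 into 31 clusters (scanpy 1.11.5, leidenalg 0.10.2). A cluster took the marker list with the largest share of its genes at least 2-fold above the median cluster (10 CPM added), in at least 10% of cells and for at least 3 genes. This score was set after the data had been seen, because comparing with all other cells left podocyte clusters unnamed. Doublets were scored with Scrublet in scanpy and kept, since the authors state that multiplets had been excluded.

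With 1 library per condition no test was made. Levels have exact Poisson, shares exact Clopper-Pearson and ratios conditional binomial 95% intervals. A gene was called at 2-fold with at least 10 UMIs in the 2 groups together, and a group at 0 was set to 3 counts. The limits of 5 and 9 replication genes per cell were set after the data had been seen. The members and lists were chosen with earlier results of these data known. Named genes were all 37 members, the 5 genes of each longer list with the most UMIs in cells with 3 mitosis genes, Havcr1, Krt20 and Wt1, and the 5 genes most like the mitosis sum among genes of at least 100 UMIs. The calculations were tested on simulated data. Gene positions came from GENCODE on mm10, and for promoters the earliest listed start of each gene was used. Alternatives changed the filters, the clustering, the scaling (TMM in edgeR 4.0.16), the gene limits and the depth. Python 3.11.15, numpy 2.4.6, scipy 1.17.1 and R 4.3.3 were used.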

Additional observations from a re-analysis of the deposited data

Results flagged for a closer look

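Among barcodes with over 50% mitochondrial UMIs, which were left out of all classes, replication genes summed to 85.1 CPM in IRI24h-TDN (interval 74.6 to 96.7) and 131 CPM in IRI24h-TD (99.5 to 170), above the 53.7 CPM of the same kind of barcode in Sham (44.0 to 65.1). These are lower than the 332 and 252 CPM of the kept cells of the same libraries.

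Mitosis genes were lower after IRI in several groups, opposite to PEC-like cells as a class, and these differences between groups were not tested. The ratio of IRI24h-TDN to Sham was 0.385 in ascending limb-like cells (0.266 to 0.564), where 2 of 130 Sham cells and 4 of 514 IRI24h-TDN cells had 3 mitosis genes. There 1 cell held 58.1% of the Sham mitosis UMIs, without the top cell of each library the ratio was 0.791 (0.472 to 1.40), and in cells with under 3 mitosis genes the levels were 11.0 and 11.4 CPM in Sham and IRI24h-TDN. The ratio was 0.0809 in PEC-like cluster 16, 0.243 in PEC-like cluster 20 and 0.194 in PTEC-like cluster 17. In cluster 20, 1 cell held 92.0% of the Sham mitosis UMIs, whereas in cluster 16 the Sham UMIs came from 34 cells, 7 of which had 3 mitosis genes, and in cluster 17 from 41 cells, 12 of which had 3.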

How the results depend on the processing

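Of 78 recomputed values of 8 results, 41 moved by less than their counting interval, 32 moved by more and 5 changed direction; 10 of the alternatives were chosen after seeing the data, as were the other values without a top cell. Shares of cells with 3 mitosis genes in Sham, IRI24h-TDN and IRI24h-TD became 1.37%, 2.77% and 1.34% with a limit of 2 genes. With a limit of 5 genes the first 2 became 0.547% and 0.931%. Thinned to 2400 UMIs, Sham, IRI24h-TDN and IRI24h-TD became 0.562%, 0.770% and 0.357%, so the mixtures were closer at equal depth. The other values are log2 ratios of IRI24h-TDN to Sham. The PEC-like mitosis value of 1.63 became 1.74 with at least 500 genes per cell, 1.83 with no correction between libraries, 2.54 at resolution 0.5, 1.40 at resolution 2, 1.38 with 4000 variable genes, 1.92 as the median over members and 1.76 without each library's top cell. It reversed to -3.01 without cluster 7 and to -0.30 with cell cycle genes kept in clustering, where 64 of the 76 PEC-like and 25 of the 42 PTEC-like cells with 3 mitosis genes left their classes for an unnamed cluster of 151 cells led by Top2a, Mki67 and Havcr1. The PTEC-like mitosis value of 0.37 became 0.054 with at most 20% mitochondrial UMIs, 0.87 at resolution 0.5, 0.97 with cell cycle genes kept and 0.13 with TMM. It reversed to -0.52 at resolution 2, -0.73 with 4000 variable genes and -0.35 without each library's top cell, so its direction is not settled; the cause of the clustering dependence was not tested. The PEC-like replication value of 1.67 became 1.59 with no correction between libraries, 1.93 at resolution 0.5, 1.51 with 4000 variable genes, 0.70 with cell cycle genes kept, 0.61 without cluster 7 and 0.60 in cells with under 3 mitosis genes. The PTEC-like replication value of 2.02 became 2.26 with at least 500 genes per cell, 2.27 at resolution 0.5, 1.81 at resolution 2, 1.82 with 4000 variable genes, 1.79 with TMM and 1.66 in cells with under 3 mitosis genes. The podocyte-like replication value of 0.38 became 0.46 with TMM and 0.48 as the median over members. No replication value changed direction under these alternatives.

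No paired analysis was possible because each condition is 1 library. For the same reason no replicate was left out, and a difference between libraries cannot be told apart from a difference between the animals, the sorts or the captures. PTEC-like cells after IRI number 162 and 128, and a few deep cells carry most of their mitosis UMIs, which counting intervals do not cover.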

Other observations

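Classes outside the main comparison also held replication genes. In intercalated-like cells, the acid-base cells of the collecting system, at least 5 replication genes were detected in 3 of 183 Sham cells (1.64%) and 29 of 359 IRI24h-TDN cells (8.08%), but in none after thinning to 2400 UMIs. Endothelial-like cells had 0 of 203 and 5 of 105 (4.76%), and mesangial-like cells 3 of 294 (1.02%) and 9 of 461 (1.95%). After thinning, endothelial-like cells had 0 of 98 and 1 of 104, and no mesangial-like cell of either mixture had 5. The summed replication ratio of IRI24h-TDN to Sham was 1.23 in intercalated-like cells (1.09 to 1.38), 1.49 in endothelial-like cells (1.23 to 1.8) and 1.03 in mesangial-like cells (0.924 to 1.16). Mitosis genes summed to 5.75 and 16.8 CPM in intercalated-like cells, with 1 cell in IRI24h-TDN that had 3 of them.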
